A study of Mus musculus with 2 samples.

Results

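The DNA between Ighg3 and Ighd in the mouse heavy chain locus (Igh), with Ighd itself, was examined for its contacts along the locus. It was taken as chr12:114611001-114656272 (mm9), 45.3 kb long, the stretch between Ighg3 and Ighd and over Ighd by the definition used here, with each fragment placed by its midpoint. No mm9 annotation was used here, so no single fragment was assigned to a gene or element. Contacts were measured by 5C, in which crosslinked chromatin is cut with HindIII and ligated, and ligation products between forward and reverse primers on fragment ends are sequenced and counted. The cells were B cells from C57Bl/6 spleens, depleted of those bearing CD43 and kept for 40 hours in LPS plus IL4, the latter at 10 ng per ml. They form 1 group of 2 replicates, called biological replicates in the series description, with no untreated sample and no second condition.

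The interval held 8 of the 206 probed fragments, 4 with forward and 4 with reverse primers. All pairs with at least 1 of these fragments and midpoints at least 10 kb apart were taken, which gave 792 of 10415 such pairs (7.60%). Another 16 pairs of the interval lay closer. The total counts were 14503618 in replicate 1 and 17658603 in replicate 2, and the 792 pairs held 337972 and 384588 of them. All pairs at least 10 kb apart held 3082248 and 5553647. The interval's part of these was 10.97% and 6.92%, above its share of pairs in replicate 1 and below it in replicate 2. The value below the share in replicate 2 rests on a single very high pair outside the interval, forward 28 with reverse 24. That pair held a far larger part of all these counts in replicate 2 than in replicate 1. The change between replicates is therefore not read as a change in the interval's own contacts. The median over interval pairs was 64.5 and 80 counts. A single count of that size has a 95% exact Poisson interval of 49.7 to 82.3 and 63.4 to 99.6. This is counting error, neither an interval of the median nor the spread over pairs. Of the 792 pairs, 15 had no count in replicate 1 and 0 in replicate 2.

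Ighd encodes the constant region of IgD. A naive B cell makes IgM and IgD from the same rearranged V, D and J segments by alternative splicing of 1 long transcript across Ighm and Ighd. Class switching instead joins the switch region before Ighm to that of another constant gene and deletes the DNA between them, which includes Ighd. LPS with IL4 is known to induce switching to IgG1 and IgE. Enhancers lie at both ends of the constant genes, Eμ between the J segments and Ighm, and the 3' regulatory region beyond Igha. In the RefSeq gene table of GRCm38.p6, used for gene order alone, the pseudogenes Gm9134, Gm9136 and Gm5190 lie between Ighg3 and Ighd. Igha, Ighe, Ighg2c, Ighg2b, Ighg1 and Ighg3 lie at lower coordinates, and Ighm and the J segments at higher ones. "Below" therefore means the side of Ighg3 and Igha, and "above" the side of Ighm and of the J, D and V segments. Splenic B cells carry rearranged alleles that differ between cells, and the labels do not say how many had switched. Distances are those of the reference genome, and the part of rearrangement or switching in any value was not tested.

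The 8 fragments covered 36.6% of the interval, unevenly. Forward 58 (chr12:114614961-114617010) and reverse 61 (chr12:114617320-114617981) lay at its lower end. An unprobed gap of 20.4 kb separated them from forward 68 (chr12:114638362-114643285). The remaining 5 fragments lay together at the upper end: reverse 70 (chr12:114647312-114649351), forward 71 (chr12:114649352-114649657), reverse 73 (chr12:114649669-114650838), forward 74 (chr12:114650839-114652513) and reverse 75 (chr12:114652514-114656272). Forward 71 was the shortest, at 306 bp, and forward 68 the longest, at 4924 bp.

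The 8 fragments differed in how many counts they gathered. A lowess curve of counts on log10 distance over all 10415 pairs gave the expected count, and the ratio of observed to expected count was averaged over each fragment's pairs. Reverse 70 was highest, with 105118 and 111652 counts and a mean ratio of 2.25 ± 0.61 (SD, n = 2), followed by reverse 75 with 1.96 ± 0.55. Reverse 70 was the higher within each replicate, with 2.69 and 1.82 against 2.35 and 1.57. Forward 68 had 0.919 ± 0.034 and reverse 73 0.820 ± 0.056. Forward 71 had 0.739 ± 0.348 and forward 74 0.697 ± 0.084. Forward 71 was above both forward 74 and reverse 73 in replicate 1 and below both in replicate 2. Forward 74 was below reverse 73 in both replicates. The fragments at the lower end had the lowest ratios, reverse 61 with 0.446 ± 0.115 and forward 58 with 0.254 ± 0.0996. Of the fragments next to the interval, reverse 55 below it had 1.27 ± 0.28 and forward 76 above it 0.323 ± 0.074. A fragment's total also depends on its primer, and from these counts the primer and the fragment cannot be told apart. Where contacts go is therefore given after division by each primer's mean ratio, as a corrected ratio, for which 1 is the mean of a primer's pairs.

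Over all its pairs the interval lay somewhat above the map before primer correction, more so in replicate 1. The median ratio before primer correction was 0.509 in replicate 1 and 0.463 in replicate 2, beside 0.357 and 0.404 over all pairs. Ratios over 1 made up 30.9% and 23.1% of interval pairs, beside 24.2% and 21.9% of all pairs. After primer correction the medians were 0.755 and 0.760, beside 0.724 and 0.759. The correction sets each primer's mean ratio to 1, so this closeness is largely built in and does not measure the interval's level. Medians lie below 1 because the expected count follows the mean, which a few high pairs raise. Across interval pairs, corrected ratios had a Spearman rho of 0.594 between replicates, beside 0.563 over all pairs. These correlations are across pairs that share primers and are given as descriptions.

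The nearby contacts of the interval were uneven in direction. Its fragments contacted the side of Ighg3 and Igha more than the side of Ighm, J and D, within 250 kb. Between 10 and 250 kb, the 118 pairs with partners below had median corrected ratios of 0.871 and 0.802, and the 85 pairs with partners above 0.211 and 0.208. All pairs of the map at these distances had 0.364 and 0.441. The side below was thus 4.12-fold and 3.85-fold above the other, a log2 difference of 1.99 ± 0.07 (SD, n = 2). An exact two-sided sign-flip test over the 2 replicates gave p = 0.5, the smallest it can give. The sides differ in their mix of distances, with a median of 154.7 kb below and 58.3 kb above, so narrower ranges of distance are given next. Before primer correction the log2 difference was 3.62, or 12.3-fold, and what the correction divides out, primer or fragment, cannot be told apart.

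**Figure D1:**
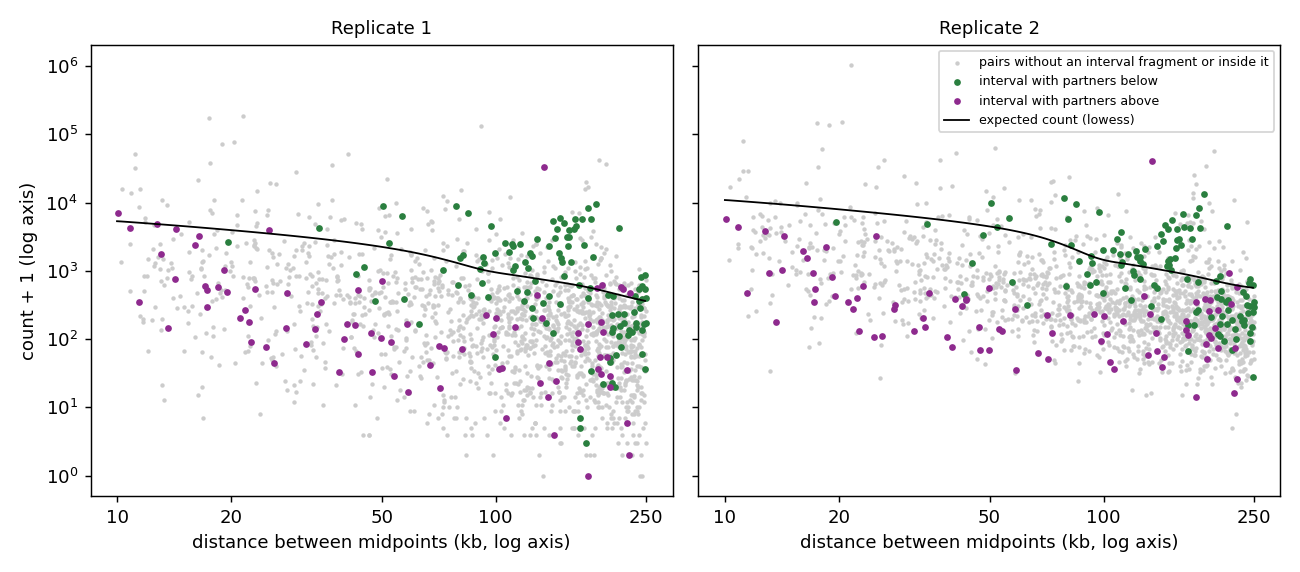
Count plus 1 (log axis) against the distance between fragment midpoints in kb (log axis) for each replicate, for interval pairs with partners below (green), with partners above (purple) and all other pairs (grey), with the expected count as a line. Most purple points lie below the line and below the green points at the same distance, and the highest purple point beyond 100 kb is forward 115 with reverse 70.

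The difference was present at each distance that could be compared, and was smallest at the longest. Between 50 and 100 kb, the 20 pairs below had median counts of 1432.5 and 1852, and the 11 pairs above 73 and 130. Their corrected ratios were 1.01 and 0.884 below, and 0.191 and 0.190 above. The map as a whole had 0.275 and 0.330 at these distances. Between 100 and 150 kb, 31 pairs below had 0.894 and 0.951, and 13 pairs above 0.217 and 0.267, with 0.329 and 0.403 for the map. From 150 to 250 kb, 62 pairs below had 0.837 and 0.714 and 21 pairs above 0.583 and 0.596, and the map had 0.453 and 0.567. The side below was 5.31-fold and 4.66-fold higher at 50 to 100 kb, 4.12-fold and 3.57-fold at 100 to 150 kb, and 1.44-fold and 1.20-fold at 150 to 250 kb. Both sides were above the level of the map in that last range. Under 50 kb the comparison is thin, because 5 pairs below had 0.494 and 0.605, and 40 pairs above had 0.168 and 0.117. The side above was below the map's 0.323 and 0.373 at that range.

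Each of the 8 fragments showed the same direction in both replicates. Forward 71 had the widest difference in replicate 1, with a median of 0.667 below and 0.0861 above, and had 0.944 and 0.198 in replicate 2. It rests on the closest partners, since from 20 kb on its log2 difference was 1.28 ± 0.25 in place of 2.60 ± 0.50. Reverse 73 had 0.967 below and 0.192 above in replicate 1, and 1.18 and 0.182 in replicate 2. Reverse 75, the last fragment of the interval, had 1.08 and 0.172, then 1.18 and 0.215. Reverse 70 had 0.745 and 0.170, then 0.783 and 0.185. At the other end of the interval, forward 58 had 1.07 and 0.265, then 0.638 and 0.237, and reverse 61 had 0.613 and 0.186, then 0.568 and 0.134. Forward 74 had 0.974 and 0.340, then 1.20 and 0.394, and its log2 difference was 1.05 ± 0.50 from 20 kb on, in place of 1.56 ± 0.06. Forward 68 had 1.01 and 0.412, then 0.940 and 0.394, the smallest difference from 10 kb on, whereas from 20 kb on forward 71 and forward 74 had smaller ones. The 16 medians below ranged from 0.568 to 1.20 and the 16 above from 0.0861 to 0.412, so they did not overlap. These medians are not independent, since fragments of the same primer direction share partners and all share the 2 libraries. Of 107 fragments of the map compared around their own position, 14 were over 2-fold higher below in both replicates, these 8 among them.

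**Figure D2:**
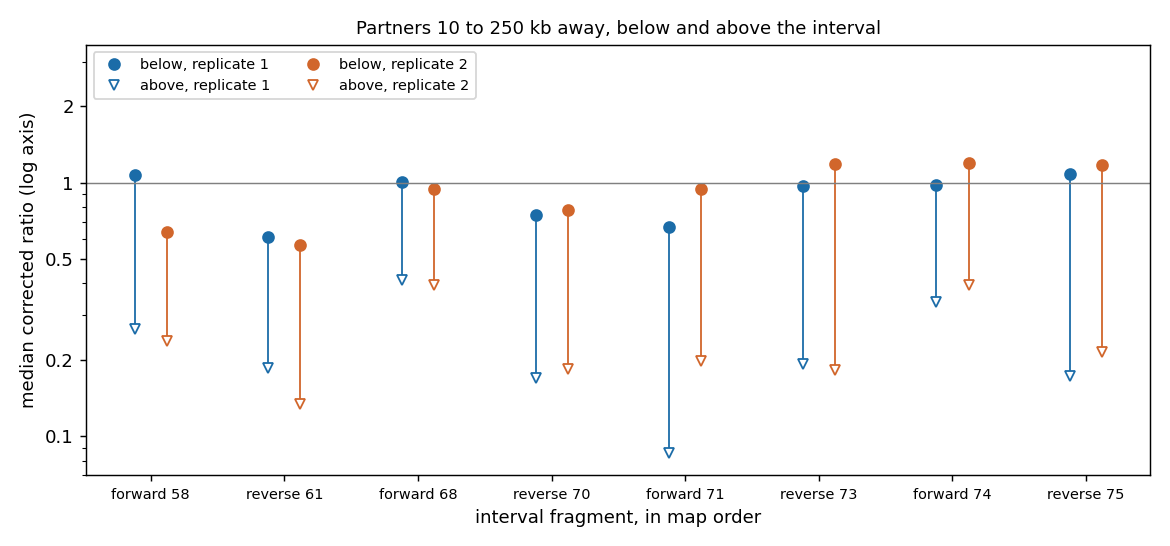
Median corrected ratio (log axis) of each interval fragment, in map order, with partners 10 to 250 kb away below the interval (filled circles) and above it (open triangles), in both replicates (colours), joined by a line. Every circle lies above its triangle, and the lowest circle, at 0.568, is higher than the highest triangle, at 0.412.

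Single pairs showed this in counts for some fragments. Reverse 70 had 8787 and 9979 counts with forward 54, at 50.4 kb below, but 167 and 382 with forward 91 at 40.6 kb above. Its nearest tested partner above, forward 78 at 12.7 kb, gave 4920 and 3847 counts, fewer than forward 54 did from 50.4 kb away. Reverse 73 did not show it in counts, with 2525 and 4394 with forward 54 at 52.3 kb below. With forward 78 at 10.8 kb above it had 4304 and 4358, more in replicate 1 and nearly equal in replicate 2. Its corrected ratios were 0.710 and 0.693 with forward 54, and 0.457 and 0.581 with forward 78. Forward 68 had 4195 and 4894 counts with reverse 55 at 34.1 kb below, against 585 and 2222 with reverse 77 at 18.5 kb above. At the nearest partners of reverse 75, forward 71 and forward 74 the difference was smaller. Reverse 75 had 6262 and 5931 counts with forward 54 at 56.4 kb below, and 6932 and 5724 with forward 80 at 10.05 kb above, with corrected ratios of 0.575 and 0.538 below and 0.523 and 0.447 above. Forward 71 had 904 and 453 counts with reverse 55 at 42.8 kb, a corrected ratio of 0.145 and 0.128, against 0.0851 and 0.0957 with reverse 79 at 13.6 kb above. Forward 74 had 0.349 and 0.312 with reverse 55, and 0.340 and 0.192 with reverse 79. In counts, reverse 81 above exceeded reverse 55, with 3208 and 1532 for forward 71 at 16.5 kb and 4039 and 3242 for forward 74 at 14.3 kb, against 904 and 453 and 1148 and 1312. Corrected ratios with reverse 81 were 0.0861 and 0.0919 for forward 71 and 0.186 and 0.148 for forward 74.

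The lowest corrected ratios of the interval were with the fragments directly above it. The ranking is over all distances, and near pairs were lower across the map. All pairs of the map 10 to 50 kb apart had median corrected ratios of 0.323 and 0.373, against 0.724 and 0.759 over all tested pairs. Mean log2 corrected ratios to the interval were taken for the 194 outside fragments with 4 tested interval pairs, with a pseudocount of 1. Of these, 10 lay in the 45.3 kb above the interval (chr12:114656273-114701544), and all 10 were among the 20 lowest in rank, with means from -3.93 to -2.24. The lowest was reverse 83 (chr12:114667887-114670119), at -3.93 ± 0.27 (SD, n = 2), and next was reverse 90 (chr12:114679904-114686567), at -3.47 ± 0.18. Forward 86 (chr12:114675716-114676753) had -3.04 ± 0.36 and forward 91 (chr12:114686568-114691293) -3.02 ± 0.23. In counts, reverse 83 had 89, 465, 484 and 526 with forward 58, 68, 71 and 74 in replicate 1, and 138, 313, 433 and 550 in replicate 2. Forward 91 had 18, 167, 32 and 347 with reverse 61, 70, 73 and 75 in replicate 1, and 51, 382, 105 and 475 in replicate 2. Not all 10 were low in counts. Reverse 81, at -2.83, had 698, 3979, 3208 and 4039 with forward 58, 68, 71 and 74 in replicate 1, and 557, 3261, 1532 and 3242 in replicate 2. Among the 5 lowest, 1 lay far away. Reverse 552 (chr12:116364360-116366864), 1732 kb from the centre of the interval, had -3.19 ± 0.55, but it had 0 to 4 counts with each interval fragment in replicate 1 and 6 to 20 in replicate 2.

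**Figure D3:**
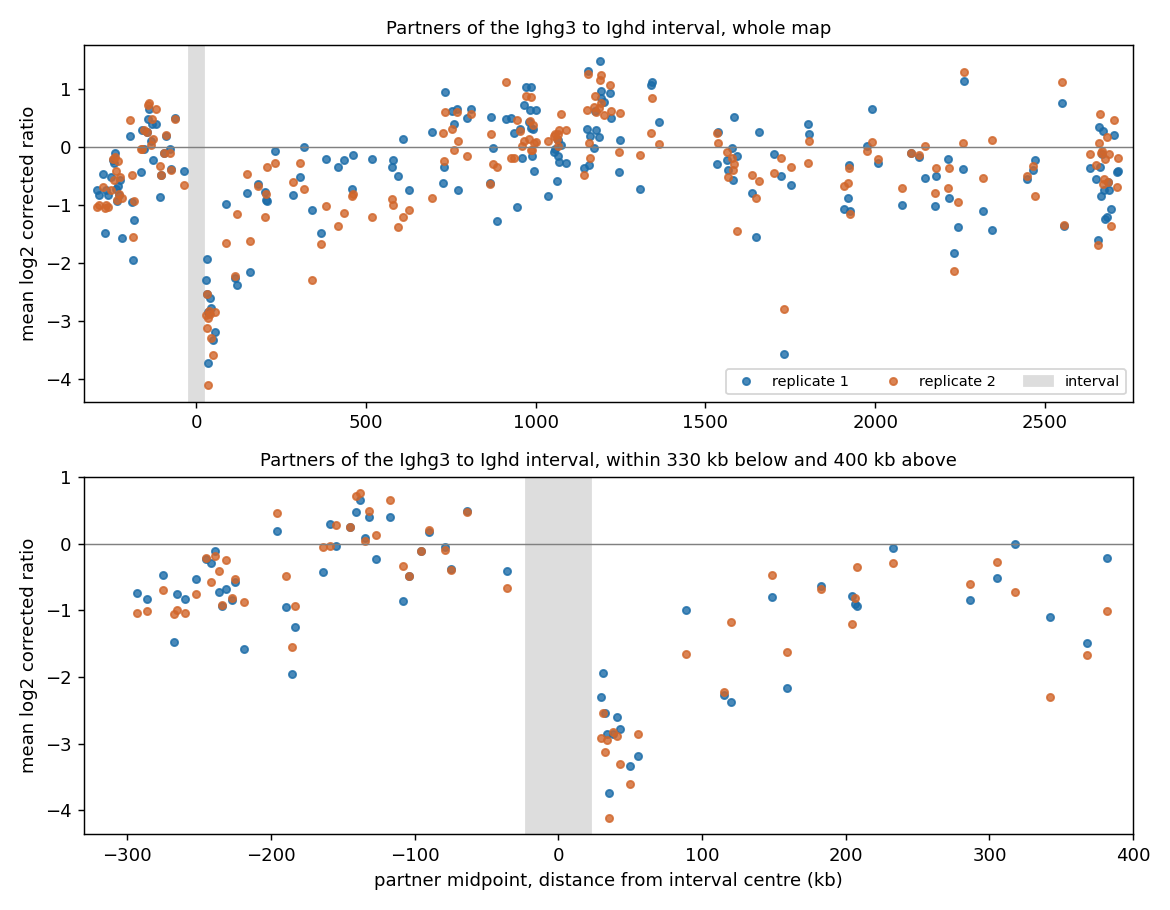
Mean log2 corrected ratio of outside fragments to the interval against the distance of the fragment from the interval's centre in kb, for both replicates (colours), over the whole map (top) and near the interval (bottom; grey band, the interval). The lowest cluster, between -4.12 and -1.94, lies directly above the interval, and values rise again with distance on that side.

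On the side below, contact varied by section. The 18 partners from forward 28 to forward 54 (chr12:114465909-114601396) had median values of 0.03 and 0.08, against -0.33 and -0.23 over all 194 partners. Reverse 35 (chr12:114493852-114496828) led this section at 0.70 ± 0.07, with 487, 4067, 3152 and 3117 counts to forward 58, 68, 71 and 74 in replicate 1, and 859, 4635, 1563 and 2829 in replicate 2. Forward 34 (chr12:114491123-114493851), which abuts it, had 0.60 ± 0.18. Farther down, the 20 partners of chr12:114339456-114450784 had medians of -0.75 and -0.78, and 19 of them were below 0 in both replicates. The exception was reverse 22 (chr12:114434637-114441221), at 0.32 ± 0.19, which without its highest interval pair had -0.90 and -0.46. Both the place of this split and the partners reverse 35 and forward 34 were chosen after their values were seen.

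Farther above the interval, corrected ratios were near or above the median of all tested pairs, 0.724 and 0.759. That median is over all distances, and values of the map at matched distances beyond 250 kb are not given here. Corrected ratios of the interval were highest between 850 and 1381 kb away. Counts there were low, with medians of 38.5 and 55, against 434 and 520 with partners below. Which step was highest depended on the correction. By position of the partner, median corrected ratios were 0.740 ± 0.049 (SD, n = 2) for 155 pairs below the interval and 0.253 ± 0.018 for 102 pairs above it up to chr12:114999999. In successive steps of 500 kb they were 0.743 ± 0.149, 1.20 ± 0.09, 0.775 ± 0.055 and 0.703 ± 0.039, and 0.728 ± 0.088 in the last step, which ends with the map at chr12:117350186. The step at 1.20, the second of these, ends at chr12:115999999. Of its 48 partners, 26 were above 0 in both replicates on the log2 scale and 6 below, and 8 of the 10 highest partners of the interval lay there. Over all 194 partners, 47 were above 0 in both and 110 below.

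Among the highest partners, reverse 418 (chr12:115823136-115824506) had a mean log2 corrected ratio of 1.32 ± 0.23. Its counts with forward 58, 68, 71 and 74 were 8, 52, 67 and 25 in replicate 1 and 12, 122, 61 and 64 in replicate 2. Forward 419 (chr12:115824507-115826299), which abuts it, had 1.04 ± 0.27, with 14, 261, 120 and 322 counts to reverse 61, 70, 73 and 75 in replicate 1 and 39, 266, 142 and 305 in replicate 2. Reverse 428 (chr12:115848051-115855284) had 0.997 ± 0.097, with 1, 6, 53 and 11 counts to forward 58, 68, 71 and 74 in replicate 1 and 13, 87, 52 and 49 in replicate 2. Forward 402 (chr12:115786561-115788403) had 1.28 ± 0.04, but without its highest interval pair it had 0.34 and 0.11. Reverse 713 (chr12:116894435-116897428), 2262 kb from the interval's centre, had 1.21 ± 0.12. These values rest on low counts, and no pair of reverse 418, forward 419, reverse 428 or reverse 713 with the interval was called.

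Few single pairs of the interval stood out. Each replicate's residuals from the expected count, divided by their SD at that distance, were given an upper-tail p from a fitted Weibull distribution and adjusted by Benjamini-Hochberg over all 10415 pairs. A pair was called when this q was under 0.01 in both replicates. On counts, 1 of the 792 interval pairs was called, 0.126%, against 0.24% of all pairs (25 of 10415). After primer correction, 3 of 792 were called, 0.379%, against 0.307% of all pairs (32 of 10415). In single replicates, 2 and 2 interval pairs passed on counts (0.253% in each), where 0.432% and 0.374% of all pairs did. After correction 5 and 4 passed (0.631% and 0.505%), where 0.422% and 0.451% of all pairs did. These shares are near the background, so the interval as a whole is not set apart by its calls. On log2 counts 0 of all 10415 pairs were called by the same Weibull fit, and 32 interval pairs (4.04%) and 250 of all pairs (2.4%) had an unadjusted p under 0.05 in both replicates.

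The pair called both ways joined reverse 70 to forward 115 (chr12:114778143-114787052), 134 kb above, within the section where the interval's other contacts were low. It had 33278 counts in replicate 1 and 40561 in replicate 2, where 739 and 1091 were expected, a ratio of 41.1 ± 5.57 (SD, n = 2; q of 9.7e-07 and 3.3e-06 by the Weibull fit across all pairs). It held 31.7% of the tested counts of reverse 70 in replicate 1 and 36.3% in replicate 2, with 95% Wilson intervals of 31.4 to 31.9% and 36.0 to 36.6%, the highest tested pair of that fragment in both. Its corrected ratios were 11.2 and 18.3. Adjacent pairs were not raised. Reverse 70 had 206 and 217 counts with forward 103 and 23 and 53 with forward 117, with corrected ratios from 0.169 to 0.267. These are the forward fragments probed next to forward 115. Forward 115 had 200 and 232 counts with reverse 73, which lies just beyond forward 71, and 440 and 430 with reverse 75. Among the 85 pairs between the interval and partners above it within 250 kb, it and forward 74 with reverse 137, at 1.22 and 1.70, were the 2 with a corrected ratio over 1 in both replicates.

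Both of the other pairs were called after primer correction alone. Forward 71 with reverse 22, 212 kb below, had 4300 and 4510 counts against 446 and 653 expected. Its ratios were 9.65 and 6.90 before correction (q of 0.803 and 0.678 by the Weibull fit) and 10.98 and 9.41 after it (q of 6.3e-05 and 4.9e-04). It was the highest tested pair of forward 71 in both replicates. The reverse fragments probed next to reverse 22 gave forward 71 fewer counts, 283 and 239 with reverse 19 and 52 and 117 with reverse 24. Reverse 22 had 75 and 370 with forward 74.

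Forward 402 with reverse 61, 1170 kb above, had 280 and 1039 counts, where 62.7 and 84.0 were expected. Its ratios were 4.46 and 12.4 before correction (q of 0.807 and 1.2e-07 by the Weibull fit) and 18.3 and 25.3 after it. Reverse 61 had low primer factors, 0.227 and 0.430, so the corrected ratio is much larger than the ratio of counts. By counts the pair ranked 13 and 6 among the tested pairs of reverse 61. Reverse 61 had 48 and 37 counts with forward 404, the next probed forward fragment, at corrected ratios of 3.04 and 1.49. Forward 402 had 162 and 131 counts with reverse 70, at corrected ratios of 1.23 and 1.06.

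**Figure D4:**
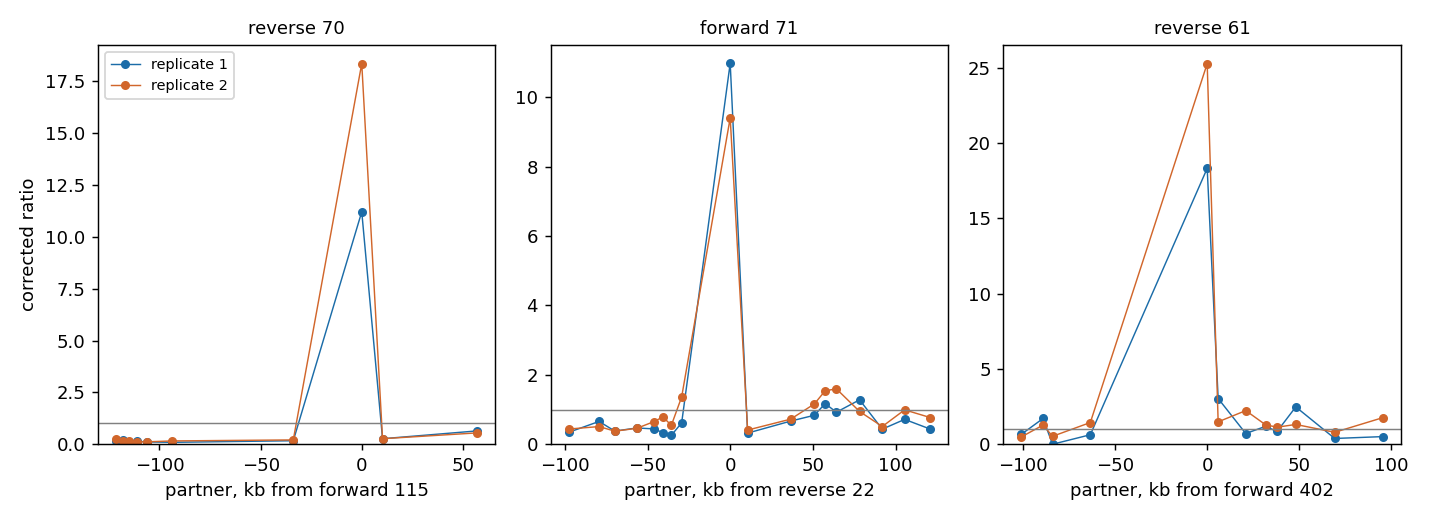
Corrected ratio of the interval fragments reverse 70, forward 71 and reverse 61 with partners within 150 kb of forward 115, reverse 22 and forward 402, against the partner's distance from that fragment in kb, for both replicates (colours; grey line, a ratio of 1). Each call is a single point, at 11.2 and 18.3, 10.98 and 9.41, and 18.3 and 25.3, with the nearest partners far lower.

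The best partner of each remaining fragment, by the lower of its 2 corrected ratios, was distant and uncalled. Forward 74 with reverse 845, at 2685 kb, had 1155 and 725 counts and corrected ratios of 10.5 and 7.63, and passed the threshold in replicate 1 but not in replicate 2 (q of 0.0014 and 0.119 by the Weibull fit after correction). Reverse 75 with forward 295, at 790 kb, had 234 and 232 counts and ratios of 10.4 and 4.90, and also passed in replicate 1 alone (q of 1.7e-06 and 0.047 by the same fit). Forward 58 with reverse 274, at 752 kb, had 24 and 178 counts and ratios of 5.68 and 6.75, and passed in replicate 2 alone (q of 0.058 and 3.2e-04 by the same fit). Reverse 73 with forward 458, at 1325 kb, had 78 and 111 counts and 4.85 and 4.70, and forward 68 with reverse 418 had 52 and 122 counts and 3.60 and 3.36. The 10 highest interval pairs by this measure also held forward 71 with reverse 286 (4.33 and 4.29) and forward 661 with reverse 61 (4.14 and 3.61).

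Within the interval, 7 pairs were at least 10 kb apart. Forward 68 with reverse 75, at 13.6 kb, had 9173 and 10399 counts and corrected ratios of 0.810 and 0.718. The other 6 joined the lower fragments, forward 58 and reverse 61, to the rest across the unprobed gap, at 23.2 to 38.4 kb. They had 258 to 1637 counts and corrected ratios from 0.169 to 0.698. Pairs under 10 kb apart were not tested and held 77.7% and 73.2% of the interval's counts. Forward 71 with reverse 70, which abut, had 524263 and 322564, and forward 74 with reverse 75, which also abut, had 102635 and 106814. Across the upper edge of the interval, forward 76 with reverse 75, abutting too, had 20924 and 21422. Forward 58 with reverse 61, 1.67 kb apart, had 23979 and 91307, and differed widely between replicates.

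The fragments at the upper end had the more similar contact profiles. Across 93 shared partners, corrected ratios of reverse 70 and reverse 75 had a Spearman rho of 0.618 in replicate 1 and 0.701 in replicate 2. Forward 71 and forward 74 had 0.497 and 0.615 across 104 partners. Forward 58 had 0.121 to 0.461 with the other forward fragments and reverse 61 had 0.00756 to 0.468 with the other reverse fragments. These lower-end fragments also had the fewest counts, 8727 and 17076 for forward 58 and 12247 and 23520 for reverse 61, and forward 58 agreed least between replicates (rho 0.30, against 0.740 for reverse 75). Partners share distance, primers and libraries, so these are descriptions.

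In the adjoining windows of the same length the sides differed less, and in the window above, taken as a whole, the sign was the other one. The 3 fragments of the window below (chr12:114565729-114611000) had a log2 difference between their own side below and side above of 0.32 ± 0.06 (SD, n = 2), and the 13 fragments of the window above (chr12:114656273-114701544) -0.59 ± 0.30, against 1.99 ± 0.07 in the interval. Within each replicate the interval exceeded the window below by 1.69 and 1.67 and the window above by 2.42 and 2.74 on the log2 scale, for each of which the exact sign-flip test over the 2 replicates gave p = 0.5, the smallest it can give. The value of the window above turned to 1.44 without primer correction. The interval's 11 pairs with the window below, 19.7 to 84.7 kb apart, had median corrected ratios of 0.732 and 0.693, and its 46 pairs with the window above, 10.1 to 71.3 kb apart, had 0.168 and 0.116. The 19 pairs that joined both windows across the interval, at 50.8 to 113.5 kb, had 0.243 and 0.228. Over 107 fragments of the map with at least 5 partners within 250 kb on each side, the median log2 difference around the fragment itself was 0.01. By this value the 8 interval fragments ranked between 2 and 12, and they were 8 of the 14 fragments over 2-fold in both replicates. The first was reverse 77 (chr12:114658751-114659958), just above the interval, at 2.26 and 2.79. Reverse 79, also in the window above, was over 2-fold too, at 1.27 and 1.41. Forward 76, forward 78 and reverse 81 had the interval's sign in both replicates, and forward 80 differed between replicates. The ranked fragments from forward 82 to forward 91 had the other sign. The higher side below thus did not stop at the interval's upper edge. In the window below, reverse 55, next to the lower edge, also had the interval's sign, at 0.999 and 0.840. Forward 54 had 0.01 and 0.01 and forward 49 had -0.24 and -0.31.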

How the data were processed

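Per the file headers, the authors deposited 1 my5C matrix of counts a replicate, after a step named transpurge, with a whole number of ligation products for each primer pair. Novoalign and mm9 are named in the submitters' processing notes, and their versions are not given in the sources used here. Counts were used as deposited. Distances run between fragment midpoints. Lowess (span 0.3, no robust rounds) of counts on log10 distance gave expected counts and, on squared residuals, the SD. Primer correction divided ratios by each primer's mean ratio in 50 rounds. Each pair counts towards the means of its primers, so a very high pair is partly divided by itself. Fragments and pairs were named by a written rule: all interval fragments, called pairs, each fragment's best partner, the 10 highest interval pairs and the 5 highest and lowest partners, with exceptions stated. The interval, rule and tests were chosen with earlier results of these data known; distance ranges within 250 kb, the ranking of 107 fragments, the sign-flip test, and 2 alternatives (primer factors from pairs over 250 kb apart, and without reverse fragment 81) were chosen after the data were seen. Other spans, thresholds, scales, distance minimums, corrections and single replicates were tried. Procedures were tested on simulated data. Sequences are not shown, since no mm9 genome was used here. Intervals cover counting error only. Fits used statsmodels 0.14.6 and SciPy 1.17.1 in Python 3.11.15, with pandas 2.3.3 and NumPy 2.4.6, and plots matplotlib 3.10.9.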

Additional observations from a re-analysis of the deposited data

How the results depend on the processing

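All 8 interval fragments kept the higher side below in both replicates under every alternative run. The log2 difference between the sides, 1.99, was 1.83 with log2 median polish, 1.84 with a minimum distance of 20 kb, 3.62 without primer correction, 1.89 with primer factors from pairs over 250 kb apart, 1.88 with factors without called pairs, 2.21 and 1.81 with spans of 0.1 and 0.6, and between 1.95 and 2.04 without one replicate. In the window below, the difference of 0.32 was 0.37, 1.61, 0.22 and 0.44 under median polish, no correction, far-pair factors and uncalled-pair factors, and 0.45 and 0.13 with those spans, and in the window above it reversed to 1.44 without correction; the cause was not tested. The median for partners below, 0.740, was 1.41 under median polish, 0.654 with far-pair factors, 0.932 with uncalled-pair factors and 0.873 with a span of 0.1. That for partners above up to chr12:114999999, 0.253, was 0.549 under median polish, 0.298 at 20 kb, 0.0828 without correction, 0.339 with uncalled-pair factors and 0.277 without reverse fragment 81. The number of interval pairs called, 1 (25 of all pairs), was 3 after primer correction (32), 0 on the log2 scale (0), 2 without replicate 1 (39) and 2 without replicate 2 (45). It was 1 at both other spans, at q thresholds of 0.001 and 0.05 and at 20 kb. The median ratio over interval pairs moved by less than its SD under every alternative run. Low counts limit the values of single distant pairs. No paired analysis was possible because there is no second group of samples to pair; differences between sides and windows were taken within each replicate.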
